A study of Mus musculus with 22 samples.

Results

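The genes that prepare chromosomes for replication were followed in livers of Fah-/- mice, whose label names a missing gene, that of fumarylacetoacetate hydrolase, which completes tyrosine breakdown. The set has 10 members, named by gene symbol, among the 18716 rows of the deposited expression table: Mcm2, Mcm3, Mcm4, Mcm5, Mcm6, Mcm7, Mcm10, Pcna, Cdc6 and Cdt1. All 10 were in the table, and all 10 passed the filter on low values, a level of at least 0.5 RPKM in at least 7 libraries, among 12537 genes that did. RPKM count reads per length of gene and per size of library, so levels can be compared between genes. Polyadenylated RNA was sequenced from 22 livers. The 7 livers called D0 here were Fah-/- livers of day 0, whose treatment label is that of a normal liver. The other 15 livers came from Fah-/- mice that received hepatocytes labelled td and were taken at day 28 after withdrawal of NTBC, a drug that blocks tyrosine breakdown upstream of Fah. Of these, 8 were treated with vehicle and 7 with an agent labelled YC. Age, sex, dose and the genotype of the transplanted cells are not stated in the labels, and nothing there says that each library came from a separate animal. D0 livers therefore differ from the others in transplantation, day and NTBC withdrawal together.

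Replication origins are prepared, or licensed, in G1 phase, when the origin recognition complex, Cdc6 and Cdt1 load the ring of Mcm2 to Mcm7 onto DNA. In S phase the loaded ring becomes the core of the replicative helicase, Mcm10 takes part in its activation, and Pcna, a sliding clamp, holds the polymerases on the template. Adult hepatocytes are mostly quiescent and re-enter the cell cycle when liver mass is lost, and many licensing genes are transcribed under E2F factors late in G1.

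Some facts of the whole series bear on the values. Transcripts that define hepatocytes (Alb, Apoa1, Ttr, Serpina1b, Fgb and Hnf4a) were present in every library, as the liver label states. Their sum was 47715 to 66401 RPKM in D0, 58763 to 92648 RPKM in vehicle and 32768 to 57737 RPKM in YC livers, so that every YC liver lay below every vehicle liver. Of the 6, 3 (Alb, Ttr and Serpina1b) were lower and 1 (Fgb) higher in YC than in vehicle livers, with 3 lower and none higher under median-ratio scaling. Other cell types moved as well. Of 6 macrophage transcripts 6 were higher in vehicle than in D0 livers, with sums of 81.0 to 148 RPKM in D0, 251 to 787 RPKM in vehicle and 183 to 435 RPKM in YC livers. Of 6 bile duct transcripts 5 were higher in vehicle than in D0 livers, with sums of 31.0 to 52.7, 125 to 342 and 121 to 356 RPKM. All 6 of each list were higher in YC than in D0 livers (5 of the bile duct list under median-ratio scaling). Spp1 made up most of the bile duct sums, with medians of 33.8, 179 and 179 RPKM in D0, vehicle and YC livers. From vehicle to YC livers 3 bile duct transcripts rose and none fell, or 1 and none with median-ratio scaling. Those 3 were Cldn4 (2.99 on the log2 scale), Krt19 (1.08) and Sox9 (0.53), while Spp1, at 0.01, was not called. Sums ranged over 93.0 to 170, 126 to 246 and 112 to 202 RPKM for 6 transcripts of sinusoidal endothelium and over 14.48 to 29.0, 17.8 to 113 and 24.6 to 60.9 RPKM for 6 of stellate cells. The counts of these lists stand beside 44.6% of all tested genes called higher and 6.14% lower for YC minus vehicle. With median-ratio scaling those shares were 18.6% and 16.6%. For vehicle minus D0 they were 28.2% and 29.9%, and for YC minus D0 41.2% and 12.3%. The part of these cell types in the members' values was not tested. Fah ranged from 21.1 to 38.7 RPKM in D0 livers, from 271 to 542 RPKM in vehicle livers and from 31.5 to 407 RPKM in YC livers. Y-linked transcripts (Ddx3y, Kdm5d, Eif2s3y and Uty) summed to at most 0.0454 RPKM in the D0 livers and to at least 5.55 RPKM in the vehicle livers, and they were listed at 0 in YC 4, YC 5, YC 6 and YC 7. In the comparison of vehicle with D0 livers this difference and the treatment cannot be told apart. Some libraries of a group resembled each other over all tested genes more than the rest, with deviations from the group mean correlated at 0.81 for YC 6 and YC 7, 0.75 for YC 1 and YC 2, 0.64 for YC 3 and YC 5 and 0.58 for vehicle 6 and vehicle 7. Results for members are also given with each of these pairs averaged where that changed a call. RPKM depend on the composition of each library. The median log2 fold change of all 12537 tested genes was 0.31 for YC minus vehicle, 0.25 for YC minus D0 and 0.00 for vehicle minus D0, and it became 0.02, -0.02 and 0.03 with median-ratio scaling, which sets the typical gene to no change. Member values are therefore given on both scales.

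The sequences around the members' start sites were searched for motifs of cell cycle promoters, and the stretches shown let the ring subunits be compared. RefSeq windows of build GRCm38.p6, from 250 bases before to 50 bases after the start, were found for 9 members, with none for Mcm4. The E2F-type motif TTTNNCGC (reverse complement GCGNNAAA, either strand, N for any base) was found in windows of 6 of the 9: Mcm3, Mcm5, Mcm6, Mcm7, Cdc6 and Cdt1. It was found in 5.17% of all 32851 windows and for 5.93% of the 27025 genes that have them. The form TTTGGCGC, which is contained in it, was found for Mcm3, Mcm5, Mcm6 and Cdt1 and in 0.514% of all windows (0.585% of genes). The CCAAT box (CCAAT or ATTGG), bound by NF-Y, was found for 7 of the 9, all but Cdc6 and Cdt1, and in 37.4% of all windows (41.1% of genes). The motif TTTGAA, a core form of the element bound by the DREAM repressor complex, was found for Mcm2 alone of the 9 and in 17.9% of all windows (20.2% of genes). The 9 members had 10 windows, 2 of them for Mcm7, and a motif running past a window's edge was not counted.

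The bases just before the RefSeq start of Mcm6, the subunit with most E2F-type matches, of Mcm5, and of Mcm2, which rose most from vehicle to YC livers, are given 5′ to 3′ on the gene's strand, with matches to TTTNNCGC, CCAAT and TTTGAA on either strand in capitals. For Mcm6 and Mcm5 the bases after the RefSeq start match no GENCODE transcript of the gene, whose first base lies 41 bases (Mcm6) and 60 bases (Mcm5) further downstream; the other windows matched. Adjoining capitals in Mcm6 and Mcm5 are 2 E2F-type matches, 1 on each strand, that overlap.
Mcm6, chr1:128359706-128359855, minus strand: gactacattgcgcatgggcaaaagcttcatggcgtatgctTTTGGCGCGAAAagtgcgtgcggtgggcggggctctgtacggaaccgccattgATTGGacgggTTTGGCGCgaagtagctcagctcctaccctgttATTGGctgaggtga
Mcm5, chr8:75109329-75109508, plus strand: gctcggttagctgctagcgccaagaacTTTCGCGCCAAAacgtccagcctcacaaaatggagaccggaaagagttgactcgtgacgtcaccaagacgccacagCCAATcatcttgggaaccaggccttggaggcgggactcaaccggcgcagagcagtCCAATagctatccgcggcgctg
Mcm2, chr6:88898781-88898960, minus strand: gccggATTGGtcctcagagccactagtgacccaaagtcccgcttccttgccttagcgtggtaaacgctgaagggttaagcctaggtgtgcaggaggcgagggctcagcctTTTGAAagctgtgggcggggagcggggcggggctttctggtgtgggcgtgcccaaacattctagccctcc

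For the other members with an E2F-type match, a stretch of 30 bases around 1 match each is given, with the match in capitals. The cores are alike because every match had to fit TTTNNCGC or GCGNNAAA. A further match of Mcm3 and of Mcm7, GCGGGAAA in each, is not printed.
Mcm3, chr1:20820263-20820292, minus strand, 39 bases after the start: cgggaaaacttgggaagtTTTGGCGCcaag
Mcm7, chr5:138171849-138171878, minus strand, 17 bases after the start: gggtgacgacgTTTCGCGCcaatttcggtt
Cdt1, chr8:122568035-122568064, plus strand, 33 bases after the start: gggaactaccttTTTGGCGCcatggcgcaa
Cdc6, chr11:98908002-98908031, plus strand, position -138 from the start: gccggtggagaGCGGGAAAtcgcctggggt

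The transcripts of Mcm2 and Mcm6, subunits of the ring, were the members that set YC livers apart from vehicle livers most clearly. Mcm2 (mm10 chromosome 6, 88883474 to 88898780) ranged from 2.71 to 4.20 RPKM in D0 livers with a median of 3.06, from 2.37 to 5.95 RPKM in vehicle livers with a median of 4.90, and from 7.07 to 13.9 RPKM in YC livers with a median of 12.3. Every YC liver lay above every vehicle and D0 liver, while vehicle livers spread below and above the D0 range. The log2 fold change of Mcm2 was 1.33 ± 0.19 (SE) for YC minus vehicle (limma adjusted p = 7.87e-06), 1.01 with median-ratio scaling, and 1.60 ± 0.19 for YC minus D0 (limma adjusted p = 3.18e-07). Vehicle and D0 livers did not differ in Mcm2 beyond their spread (0.27 ± 0.19, limma adjusted p = 0.217). Mcm6 (chromosome 1, 128331590 to 128359664) rose stepwise over the 3 groups. It ranged from 3.25 to 6.09 RPKM in D0 livers (median 3.46), from 4.52 to 13.3 RPKM in vehicle livers (median 9.34) and from 13.6 to 24.4 RPKM in YC livers (median 15.2). The YC livers again lay above all others, and 5 of the 8 vehicle livers lay above the highest D0 liver. Mcm6 rose by 0.85 ± 0.21 (SE) on the log2 scale from D0 to vehicle (limma adjusted p = 0.00138) and by 0.97 ± 0.21 from vehicle to YC livers (limma adjusted p = 0.000583), 0.65 with median-ratio scaling. In bulk livers fewer cells of a type and less RNA per cell cannot be told apart, for these genes and all that follow.

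**Figure D1:**
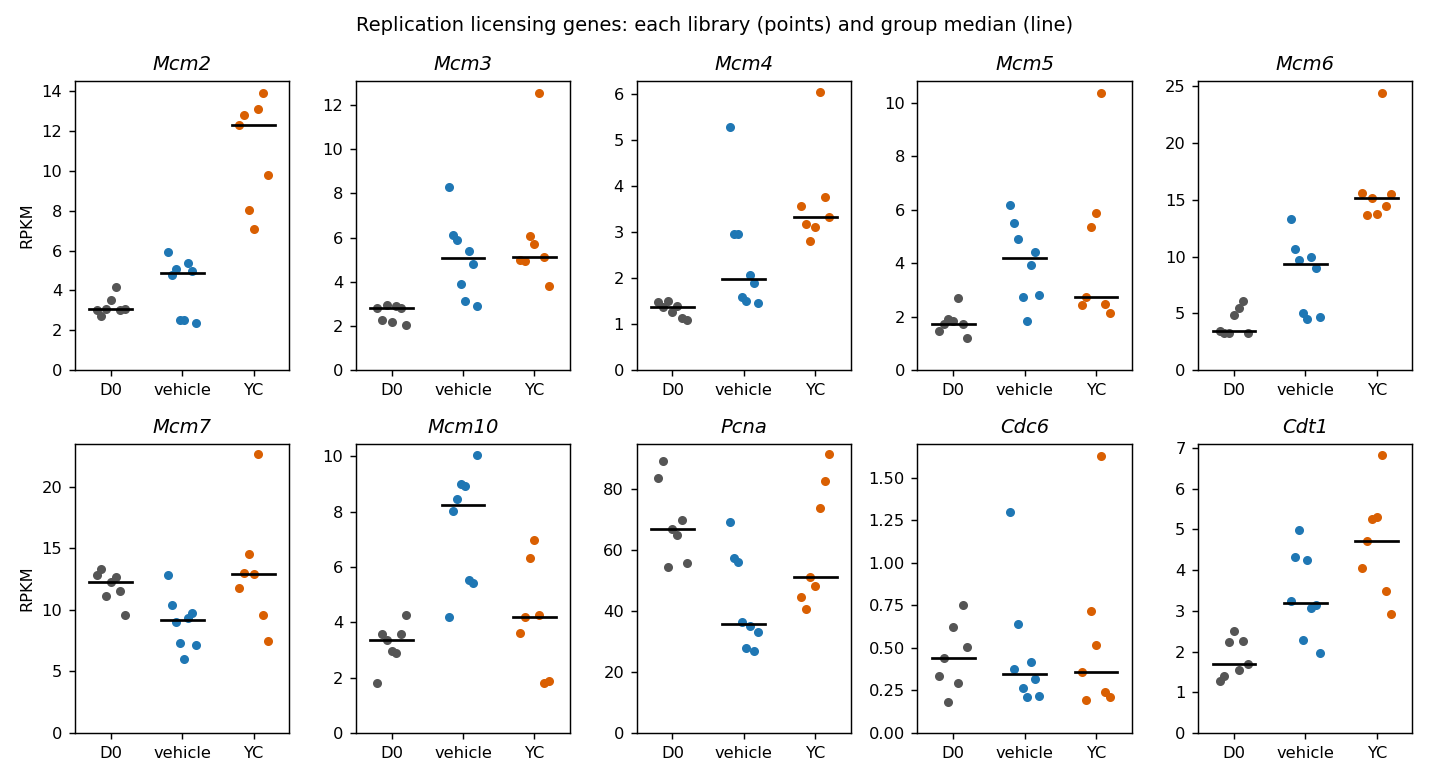
RPKM (linear axis from 0) of the 10 replication licensing genes in each of 7 D0, 8 vehicle and 7 YC libraries (points), with the group median as a line. Mcm2 and Mcm6 in YC livers lie above all other libraries, Mcm10 is highest in vehicle livers, and Pcna is lowest there.

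The remaining subunits of the ring were higher in both transplanted groups than in D0 livers, apart from Mcm7. Mcm3 (chromosome 1, 20802968 to 20820312) ranged from 2.02 to 2.94 RPKM in D0 livers, 2.89 to 8.30 RPKM in vehicle livers and 3.80 to 12.6 RPKM in YC livers, with medians of 2.80, 5.10 and 5.11 RPKM. All YC livers and 7 of the 8 vehicle livers exceeded the highest D0 liver, and the medians of vehicle and YC livers were close. Mcm3 was 0.80 ± 0.20 (SE) higher on the log2 scale in vehicle than in D0 livers (limma adjusted p = 0.00172) and 1.05 ± 0.21 higher in YC than in D0 livers (limma adjusted p = 0.000203), while YC minus vehicle was 0.24 ± 0.20 and not called (limma adjusted p = 0.325). Mcm4 (chromosome 16, 15623897 to 15637400) ranged from 1.08 to 1.51 RPKM in D0 livers, 1.47 to 5.29 RPKM in vehicle livers and 2.81 to 6.03 RPKM in YC livers, with medians of 1.37, 1.98 and 3.34 RPKM. Its YC livers lay above all D0 livers but overlapped the vehicle livers, of which vehicle 1 was the highest. Mcm4 rose by 0.62 ± 0.19 (SE) from D0 to vehicle and by 0.56 ± 0.19 from vehicle to YC livers (limma adjusted p = 0.00737 and 0.0172). The call between YC and vehicle livers ended under 5 of 37 alternative settings of the fit. Among them were median-ratio scaling (0.27, adjusted p = 0.233), leaving out YC 5 (0.44, adjusted p = 0.0501), averaging the resembling pairs (0.53, adjusted p = 0.0742) and leaving out the YC livers lacking Y-linked transcripts (0.40, adjusted p = 0.173).

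Mcm5 (chromosome 8, 75109569 to 75128439) split the YC livers. It ranged from 1.22 to 2.71 RPKM in D0 livers (median 1.75), from 1.82 to 6.20 RPKM in vehicle livers (median 4.20) and from 2.15 to 10.4 RPKM in YC livers (median 2.75). YC 3, YC 4 and YC 5 held 5.36, 5.88 and 10.4 RPKM, and the other 4 YC livers held 2.15 to 2.75 RPKM, inside or just above the D0 range. Mcm5 was higher than in D0 livers in vehicle livers (log2 0.93 ± 0.27, SE, limma adjusted p = 0.00455) and in YC livers (0.95 ± 0.27, limma adjusted p = 0.0054), and YC minus vehicle was 0.02 ± 0.27 (limma adjusted p = 0.957). The higher value in YC than in D0 livers was not called with quantile normalization (0.52, adjusted p = 0.115). Fah was 290, 407 and 291 RPKM in YC 3, YC 4 and YC 5, and 105, 128, 41.3 and 31.5 RPKM in YC 1, YC 2, YC 6 and YC 7; the part of these differences in the Mcm5 values was not tested.

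Mcm7 (chromosome 5, 138164583 to 138172422) was not higher in either transplanted group than in D0 livers. It ranged from 9.57 to 13.3 RPKM in D0 livers (median 12.3), from 6.01 to 12.8 RPKM in vehicle livers (median 9.17) and from 7.50 to 22.7 RPKM in YC livers (median 12.9). The ranges overlapped in every comparison, with 5 vehicle livers below the lowest D0 liver and 4 YC livers above the highest vehicle liver. Mcm7 was 0.41 ± 0.17 (SE) lower on the log2 scale in vehicle than in D0 livers (limma adjusted p = 0.0437). That call ended under 15 of 37 alternative settings of the fit. Among them were median-ratio scaling and leaving out D0 1, 2, 3, 4, 5 or 6 or vehicle 3, 4, 5, 6 or 8, with values of -0.34 to -0.43. Mcm7 was 0.49 ± 0.17 higher in YC than in vehicle livers (limma adjusted p = 0.022). This call ended under 6 of the 37, among them median-ratio scaling (0.16, adjusted p = 0.489) and leaving out YC 5 (0.35) or vehicle 5 (0.41). The exons of Mcm7 overlap those of Cops6 and Ap4m1 on the opposite strand, and its host transcript carries the microRNA genes Mir25, Mir93 and Mir106b. Whether strand was used is not stated, so reads of Mcm7 and of those neighbours cannot be told apart. For vehicle minus D0, Cops6 had a log2 value of 0.25 (limma adjusted p = 0.311) and Ap4m1 of 0.37 (limma adjusted p = 0.0325), the opposite sign to Mcm7. For YC minus vehicle both had the sign of Mcm7, at 0.21 and 0.16, and were not called. For YC minus D0 Mcm7 was at 0.07 ± 0.18 (SE, not called), Cops6 at 0.46 (limma adjusted p = 0.0736) and Ap4m1 at 0.53 (limma adjusted p = 0.00448).

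Because all subunits of the ring are read on the same scale within a library, their shares of the summed Mcm2 to Mcm7 RPKM do not depend on library scaling. The sum itself ranged from 20.2 to 29.3 RPKM in D0 livers, 19.5 to 51.9 RPKM in vehicle livers and 42.1 to 89.1 RPKM in YC livers. Mcm7 made up 47.7 ± 3.87% of it in the 7 D0 livers, 28.1 ± 3.57% in the 8 vehicle livers and 23.8 ± 3.81% in the 7 YC livers (mean ± SD). All D0 livers, at 43.1% or more, lay above all other livers, at 33.5% or less. Mcm6 made up 16.7 ± 3.63% in D0, 24.7 ± 2.19% in vehicle and 29.8 ± 3.34% in YC livers. Mcm3 and Mcm5 took their largest mean shares in vehicle livers, at 15.2 ± 1.13% and 12.1 ± 1.4%, against 10.96 ± 1.72% and 7.79 ± 3.40% in YC livers (SD). Mcm2 made up 12.9 ± 1.53% in D0 and 12.6 ± 1.497% in vehicle livers, ranges that overlapped, and 20.9 ± 5.76% in YC livers. The YC livers were split in this share too, with 15.5%, 14.6% and 14.7% in YC 3, YC 4 and YC 5 and 23.3% or more in the other 4. These shares are descriptions, with no test. They depend on each other, since a lower share of Mcm7 raises the shares of the rest. Reads of Mcm7, the largest share in D0 livers, cannot be told apart from those of Cops6 and Ap4m1.

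**Figure D2:**
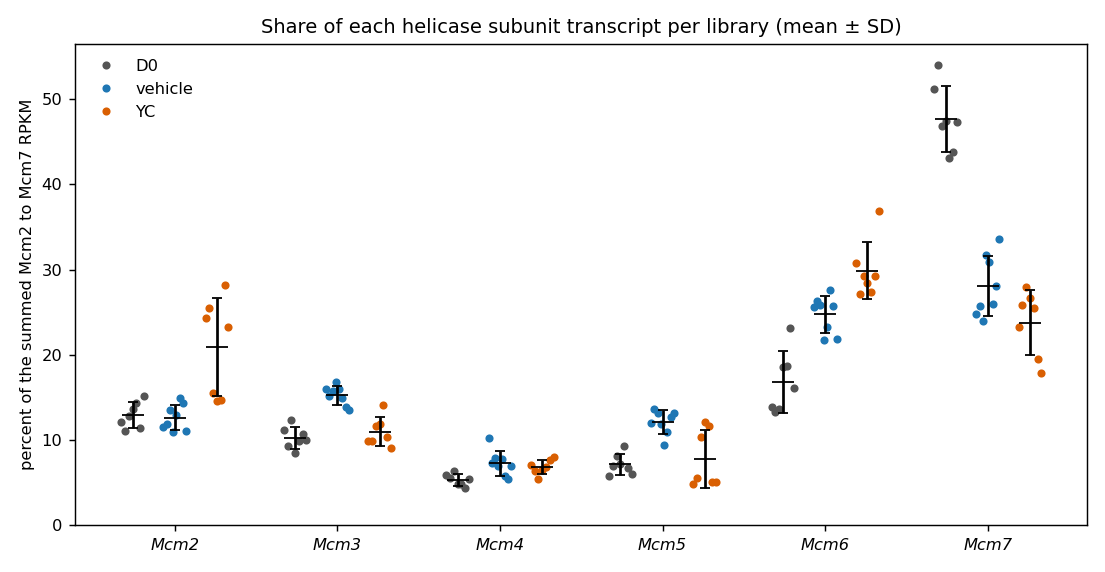
Percent of the summed Mcm2 to Mcm7 RPKM held by each subunit in each library (points), with mean and SD of 7 D0, 8 vehicle and 7 YC libraries. Mcm7 holds 43.1% or more in D0 livers and 33.5% or less elsewhere, and the Mcm2 share of YC livers spreads from 14.6% to 28.2%.

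The loading factors behaved differently from each other. Cdt1 (chromosome 8, 122568015 to 122573554), which escorts the ring to the origin, ranged from 1.28 to 2.52 RPKM in D0 livers (median 1.70), from 1.96 to 4.99 RPKM in vehicle livers (median 3.18) and from 2.93 to 6.83 RPKM in YC livers (median 4.71). All YC livers and 6 of the 8 vehicle livers lay above the highest D0 liver. Cdt1 was 0.71 ± 0.18 (SE) higher on the log2 scale in vehicle than in D0 livers (limma adjusted p = 0.00176) and 1.12 ± 0.19 higher in YC than in D0 livers (limma adjusted p = 2.29e-05). YC minus vehicle was 0.41 ± 0.18 and not called (limma adjusted p = 0.0612); it was called without vehicle 2, vehicle 3, vehicle 5, YC 6 or YC 7, with values of 0.46 to 0.50, without YC 6 and YC 7 together (0.58), with array weights (0.45) and with equal totals (0.50), and was 0.11 with median-ratio scaling. Cdc6 (chromosome 11, 98907801 to 98923940), the ATPase that acts with the origin recognition complex, was the least abundant member, with medians of 0.438 RPKM in D0, 0.346 RPKM in vehicle and 0.360 RPKM in YC livers. Its ranges of 0.183 to 0.754, 0.211 to 1.297 and 0.196 to 1.63 RPKM overlapped, and no comparison called it (log2 values of -0.01 to 0.08, limma adjusted p = 0.791 to 0.971). At this level the added pseudocount of 0.5 RPKM is as large as the signal, so a change in Cdc6 would be understated.

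Mcm10 (chromosome 2, 4989714 to 5012791), the activation factor, was highest in vehicle livers. It ranged from 1.80 to 4.27 RPKM in D0 livers (median 3.37), from 4.18 to 10.04 RPKM in vehicle livers (median 8.24) and from 1.80 to 6.97 RPKM in YC livers (median 4.17). Vehicle 1 was the lowest vehicle liver, the other 7 lay above all D0 livers, 4 of the 7 YC livers lay below all vehicle livers, and YC 6 and YC 7, at 1.80 and 1.86 RPKM, were at the bottom of the D0 range. Mcm10 rose by 1.08 ± 0.24 (SE) on the log2 scale from D0 to vehicle livers (limma adjusted p = 0.000448). It was lower in YC than in vehicle livers by -0.85 ± 0.24 (limma adjusted p = 0.00474), -1.15 with median-ratio scaling and -0.50 without YC 6 and YC 7 (adjusted p = 0.0431). Mcm10 was thus the member that fell from vehicle to YC livers, and Mcm2 and Mcm6 rose in the same libraries. YC minus D0 was 0.23 ± 0.24 and not called (limma adjusted p = 0.438), but was called at 0.58 without YC 6 and YC 7. Red cell precursors divide and can reside in the liver, so their transcripts are given beside these values. Of 5 erythroid transcripts (Alas2, Epb42, Hemgn, Klf1 and Slc4a1), 2 were tested, and they did not move together. Alas2 rose by 2.16 ± 0.33 (SE) from D0 to vehicle livers and fell by 2.01 from vehicle to YC livers, while Klf1 had values of -0.40 ± 0.19 and -0.27 ± 0.19 and was not called in either. The sum of the 5, in vehicle livers mostly Alas2 (median 19.7 RPKM, against 1.97 RPKM of Klf1), was 5.23 to 8.55 RPKM in D0, 7.27 to 34.1 RPKM in vehicle and 2.86 to 13.0 RPKM in YC livers, with vehicle 1 again the lowest vehicle liver. Hemgn was listed at 0 in 5 of 7 D0, 4 of 8 vehicle and 5 of 7 YC livers, and Slc4a1 in 1 of 7 D0 livers. Of 8 transcripts of T, B and natural killer cells, 5 were tested; 3 were higher and none lower in vehicle than in D0 livers, and 4 were lower and none higher in YC than in vehicle livers, with sums of 4.25 to 8.09 RPKM in D0, 4.97 to 26.1 RPKM in vehicle and 3.38 to 7.64 RPKM in YC livers. Of all tested genes 28.2% were called higher and 29.9% lower for vehicle minus D0, and 44.6% and 6.14% for YC minus vehicle. Mcm10 and Fah correlated at a Pearson r of 0.86 over the 22 libraries and 0.84 after group means were taken off. For Mcm10 and Alas2 these values were 0.81 and 0.57. YC 6 and YC 7 were also the lowest YC livers in Fah, at 41.3 and 31.5 RPKM. The part of Fah differences and of these cell types in the Mcm10 values was not tested.

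Pcna (chromosome 2, 132249162 to 132253314) was the most abundant member in every group and was lowest in vehicle livers, where Mcm10 was highest. It ranged from 54.5 to 89.4 RPKM in D0 livers (median 67.1), from 27.0 to 69.5 RPKM in vehicle livers (median 35.8) and from 40.7 to 91.8 RPKM in YC livers (median 51.4). 5 of the 8 vehicle livers lay below the lowest D0 liver, and YC 6 and YC 7, at 82.8 and 91.8 RPKM, were the highest YC livers. Pcna was lower in vehicle than in D0 livers by -0.75 ± 0.21 (SE) on the log2 scale (limma adjusted p = 0.00425), and this call held under all 37 alternatives. It was 0.54 ± 0.21 higher in YC than in vehicle livers (limma adjusted p = 0.0365), but the call ended under 17 of 37 alternatives, among them median-ratio scaling (0.20, adjusted p = 0.464), averaging of the resembling pairs (0.45, adjusted p = 0.153), leaving out vehicle 4, 5, 6, 7 or 8 or YC 5, 6 or 7 (0.44 to 0.52), leaving out YC 6 and YC 7 together (0.32, adjusted p = 0.21) and leaving out the YC livers lacking Y-linked transcripts (0.16, adjusted p = 0.603). YC minus D0 was -0.21 ± 0.22 and not called (limma adjusted p = 0.439), but was called lower with median-ratio scaling (-0.52, adjusted p = 0.0417) and with array weights (-0.41). Cdkn1a, the p53-induced inhibitor that binds the Pcna protein, was also lowest in vehicle livers. Its medians were 63.8 RPKM in D0, 27.0 RPKM in vehicle and 96.1 RPKM in YC livers, so unlike for Pcna the YC median was the highest. The YC and D0 livers overlapped in Cdkn1a, at 27.7 to 163 and 40.9 to 108 RPKM. YC minus D0 was 0.47 ± 0.29 (SE) and not called (limma adjusted p = 0.177). Pcna and Cdkn1a correlated at a Pearson r of 0.47 over the 22 libraries and 0.10 after group means were taken off. For Pcna and Fah these values were -0.67 and -0.40, and for Pcna and Alas2 -0.75 and -0.55. The part of these differences in the Pcna values was not tested. Processed pseudogenes of Pcna (Pcna-ps1 and Pcna-ps2) are annotated, and how reads shared with them were counted is not given.

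Over the 10 members, 6 were called higher (Mcm3, Mcm4, Mcm5, Mcm6, Mcm10 and Cdt1) and 2 lower (Mcm7 and Pcna) in vehicle than in D0 livers, where 28.2% of all tested genes were called higher and 29.9% lower, 58.1% in all. The members' median log2 fold change was 0.66, against 0.00 for all genes. With median-ratio scaling 6 were called higher and 1, Pcna, lower, beside 30.2% and 29.9% of all genes. In no member were the vehicle and D0 ranges apart, as they were for 11.2% of genes in the rising and 11.7% in the falling direction. In YC against D0 livers 6 were called higher (Mcm2, Mcm3, Mcm4, Mcm5, Mcm6 and Cdt1) and none lower, where 41.2% of all genes were called higher and 12.3% lower, 53.4% in all. With median-ratio scaling these counts were 6 and 1, beside 26.9% and 27.1% of all genes, and the members' median moved from 1.00 to 0.72. In 5 members (Mcm2, Mcm3, Mcm4, Mcm6 and Cdt1) all YC livers lay above all D0 livers, as did 19.4% of tested genes. In YC against vehicle livers 5 were called higher (Mcm2, Mcm4, Mcm6, Mcm7 and Pcna) and 1 lower (Mcm10), where 44.6% of all genes were called higher and 6.14% lower, 50.7% in all. That share of risers is near the background, and the members' median of 0.45 compares with 0.31 for all genes. With median-ratio scaling 2 members rose, Mcm2 and Mcm6, and Mcm10 fell, beside 18.6% and 16.6% of all genes. Those were also the members called under each of the 37 alternatives in this comparison. Mcm2 and Mcm6 were the members whose YC and vehicle ranges did not overlap, as held for 6.52% of genes in the rising direction. The comparisons share groups, so their values for a member are not independent of each other. Among the promoters printed before the values, Mcm6 and Mcm5, the pair whose RefSeq starts matched no GENCODE transcript, both hold overlapping matches. From vehicle to YC livers Mcm6 rose by 0.97 and Mcm5 was 0.02 on the log2 scale. From D0 to vehicle livers they rose by 0.85 and 0.93. Their levels correlated at a Pearson r of 0.73 over all libraries and 0.69 after group means were taken off. Whether promoter motifs go with levels was not tested. Matches are letters in a window and say nothing of binding in these livers.

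**Figure D3:**
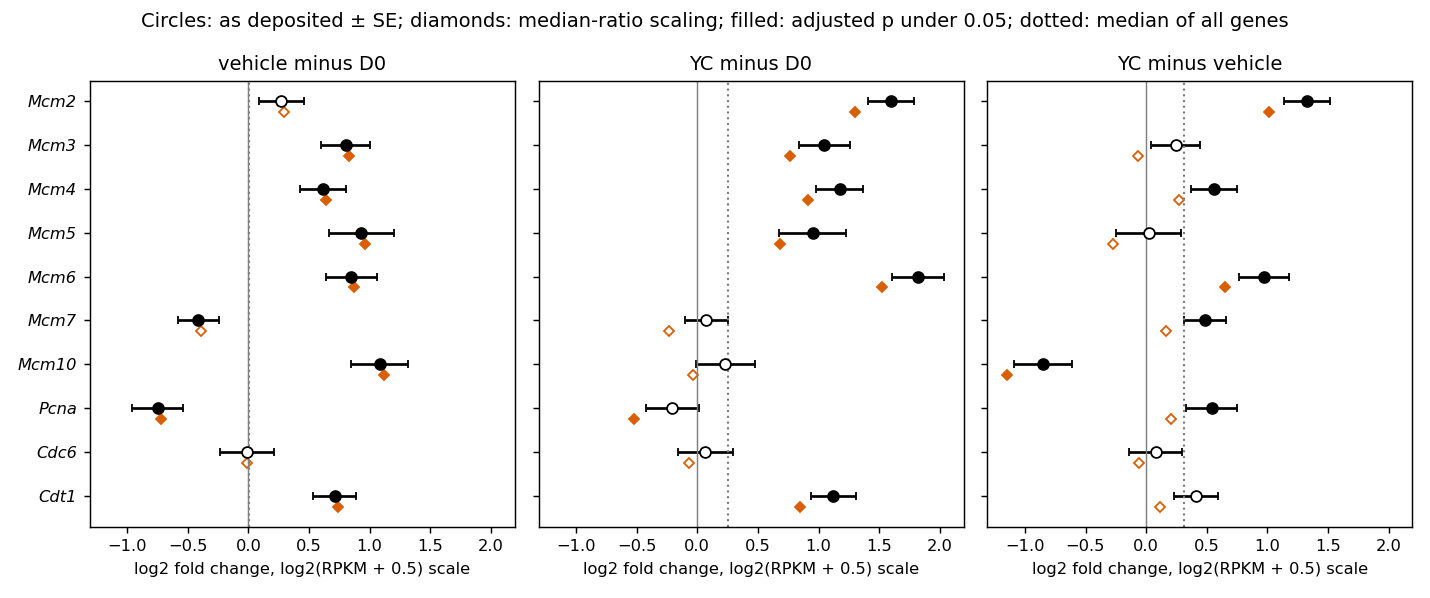
Log2 fold change (log2(RPKM + 0.5) scale) of each member in 3 comparisons, as deposited with SE (circles) and with median-ratio scaling (diamonds), filled where the adjusted p is under 0.05. The dotted line is the median of all tested genes; for YC minus vehicle it lies at 0.31, and Mcm2 (1.33), Mcm6 (0.97) and Mcm10 (-0.85) stay filled on both scales.

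The spread within groups was shared in part and followed single libraries. After group means were taken off, the median Pearson r was 0.48 over all 45 pairs of members. It was 0.69 over the 15 pairs of Mcm2 to Mcm7. For Mcm10 the values ran from -0.60 with Mcm2 to 0.39 with Cdt1. YC 5 was the highest YC liver in Mcm3, Mcm4, Mcm5, Mcm6, Mcm7, Cdc6 and Cdt1, and vehicle 1 the highest vehicle liver in Mcm2, Mcm3, Mcm4, Mcm5, Mcm6, Mcm7, Pcna and Cdc6. The exceptions in vehicle 1 were Mcm10, which was lowest of the vehicle livers there, and Cdt1, at 3.24 RPKM against 4.99 RPKM in vehicle 3. Vehicle 4, vehicle 5 and vehicle 8 held the 3 lowest summed Mcm2 to Mcm7 values of the vehicle livers, at 23.2, 19.5 and 21.4 RPKM, within the D0 range or, for vehicle 5, below it, and 9.01, 8.94 and 10.04 RPKM of Mcm10, the 3 highest. Without vehicle 1 and YC 5 together, a setting chosen after the values were seen, Mcm2, Mcm6 and Mcm10 had log2 values of 1.35, 0.98 and -0.98 for YC minus vehicle. Granulocyte precursors also divide. Of 9 neutrophil and precursor transcripts, all tested, 6 rose from vehicle to YC livers and 9 from D0 to vehicle livers, with summed levels of 3.92 to 50.1 RPKM in D0, 45.4 to 165 RPKM in vehicle and 48.4 to 401 RPKM in YC livers. Of all tested genes 44.6% were called higher from vehicle to YC livers and 28.2% from D0 to vehicle livers. With median-ratio scaling 5 of the 9 rose from vehicle to YC livers, beside 18.6% of all genes. Elane was listed at 0 in 3 of 7 D0 livers, Ctsg in 5 and Mpo in 1. S100a8 and S100a9, transcripts of mature cells, made up much of the sum and were not called from vehicle to YC livers. The precursor transcripts Mpo, Elane, Prtn3 and Ctsg rose by 2.29, 2.04, 1.81 and 1.80 on the log2 scale and stayed called with median-ratio scaling. Mpo ranged from 0.0686 to 1.29 RPKM in vehicle and from 1.01 to 13.1 RPKM in YC livers. The part of these cells in the values of Mcm2, Mcm6 and the other members was not tested.

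**Figure D4:**
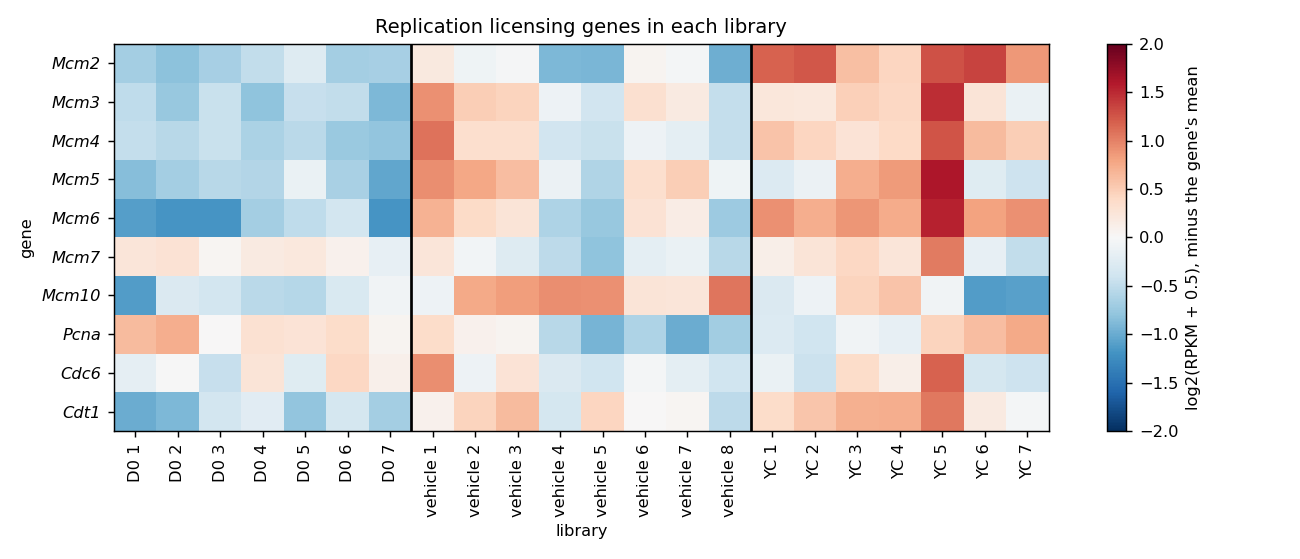
Log2(RPKM + 0.5) of each member in each of 22 libraries, minus the member's mean over all libraries (color scale from -2 to 2). YC 5 and vehicle 1 are high in most rows, Mcm10 is high in vehicle 2 to vehicle 5 and vehicle 8, and Mcm2 and Mcm6 are high in all YC libraries.

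Other steps of replication were read from lists of 101 genes in 6 groups. Their counts stand beside 44.6% of all genes called higher and 6.14% lower for YC minus vehicle, with a median of 0.31, and 28.2% and 29.9% for vehicle minus D0, with a median of 0.00. For YC minus D0 the shares of all genes were 41.2% higher and 12.3% lower, with a median of 0.25. With median-ratio scaling they were 26.9% and 27.1%. The YC minus vehicle counts of risers in the origin, helicase, polymerase and G1 to S lists lay near the 44.6% of all genes. Of 14 genes of origin recognition and licensing control, 13 were tested; 7 were higher and none lower in YC than in vehicle livers (median log2 0.38), and 2 were higher and 5 lower in vehicle than in D0 livers (median -0.22). With median-ratio scaling 1 of the 7 risers was left. Ddb1, part of the ligase that destroys Cdt1 in S phase, rose by 0.59 ± 0.13 (SE, limma adjusted p = 0.000532; 0.25 and not called with median-ratio scaling), and Gmnn, the Cdt1 inhibitor geminin, had a value of 0.41 ± 0.18 and was not called. Of 15 tested genes of 18 in helicase activation and fork progression, 8 were higher and none lower in YC than in vehicle livers (median 0.45; 3 and 1 with median-ratio scaling). Mtbp, needed for firing of origins, rose by 0.78 ± 0.14 after a value of -0.92 ± 0.14 (SE) from D0 to vehicle livers, both called, and the GINS subunit gene Gins4 had a value of 0.02 ± 0.13, not called as deposited and called lower with median-ratio scaling (-0.31).

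Of 26 polymerase and clamp loader genes 25 were tested. Of these, 13 were higher and 1 lower in vehicle than in D0 livers (median 0.40). In YC against D0 livers 19 were higher and none lower (median 0.74), or 13 and none with median-ratio scaling (median 0.46). In YC against vehicle livers 10 were higher and 1 lower (median 0.32), or 3 and 3 with median-ratio scaling. Fen1, the flap nuclease of Okazaki fragments, rose by 0.81 ± 0.13 (SE) from vehicle to YC livers, the clamp loader gene Rfc5 fell by 0.55, and Rfc2, at 0.23 ± 0.11, was not called. Of 9 genes of nucleotide supply, 7 were higher and none lower in vehicle than in D0 livers (median 0.69), and 1 was higher and 2 lower in YC than in vehicle livers (median -0.21; none and 6 with median-ratio scaling). Thymidine kinase Tk1 fell by 0.99 (SE 0.32), with medians of 8.31, 20.5 and 7.78 RPKM in D0, vehicle and YC livers, so that it too was highest in vehicle livers. The p53-induced reductase subunit Rrm2b rose by 0.69 ± 0.20 (SE; 0.43 and not called with median-ratio scaling), and Dctpp1, at -0.47 ± 0.22, was not called as deposited and was called lower with median-ratio scaling.

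G1 to S regulators and mitosis genes bracket the licensing step. Of 14 tested G1 to S genes of 16, 6 were higher and 1 lower in YC than in vehicle livers (median 0.39; 4 and 2 with median-ratio scaling). The phosphatase Cdc25a rose by 1.13 ± 0.15, cyclin Ccne1 by 1.03 ± 0.21 and E2f1 by 0.43 ± 0.18 (SE; E2f1 0.14 and not called with median-ratio scaling), Cdkn1a rose by 1.64 ± 0.28, E2f8, a repressor of E2F targets, fell by 0.66, and E2f4, at 0.09 ± 0.13, was not called. Of 16 tested mitosis genes of 18, all 16 were higher in vehicle than in D0 livers, with a median log2 fold change of 1.96 against 0.66 for the licensing genes, and all 16 in YC than in D0 livers (median 1.54; 14 with median-ratio scaling). From vehicle to YC livers 2 mitosis genes rose and 3 fell (median -0.43; none and 6 with median-ratio scaling). Ccnb1 fell by 1.04 and Cdk1 by 0.78, Bub1b rose by 0.44 (0.20 and not called with median-ratio scaling), and Mki67, Top2a and Ube2c had values of -0.25 ± 0.33, -0.41 ± 0.37 and -0.64 ± 0.34 (SE) and were not called, Ube2c being called lower with median-ratio scaling. The difference between the licensing and mitosis lists was not tested.

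**Figure D5:**
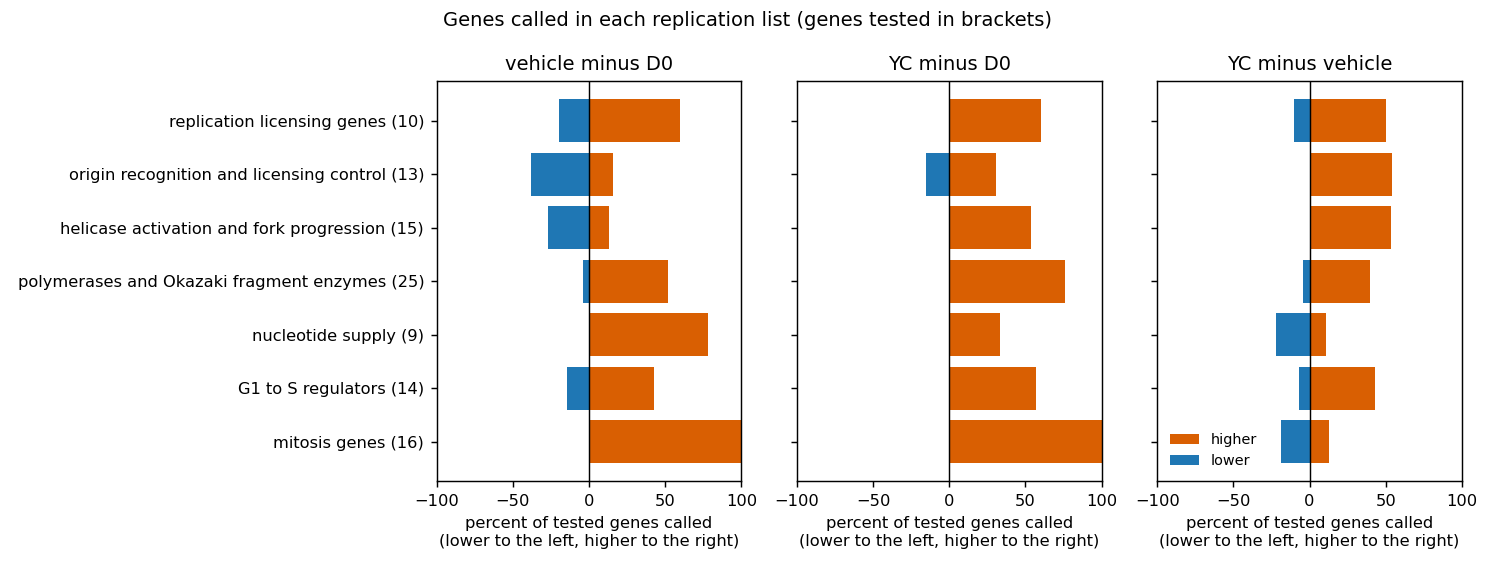
Percent of the tested genes of each list called higher (right) or lower (left) at an adjusted p under 0.05 in 3 comparisons, with the number tested in brackets. All 16 mitosis genes are higher in both comparisons with D0 livers, and 2 rise and 3 fall from vehicle to YC livers.

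The genes most like the set were found by correlating each of 11202 other genes, tested and with a mean of at least 1 RPKM, with the mean centred log2 level of the 10 members over the 22 libraries. The first 6 were E2f1 (Pearson r = 0.95), the ribonucleotide reductase gene Rrm1 (0.94), Sectm1a (0.93), Pls1 (0.92), Prom1 (0.92) and the histone chaperone gene Asf1b (0.91). E2f1 had medians of 1.59, 3.15 and 3.28 RPKM in D0, vehicle and YC livers, and Prom1 of 3.70, 6.47 and 11.99 RPKM. After the group means were taken off, so that only the spread within groups counted, the first 6 were Ezh2 (0.92), D17H6S56E-5 (0.91), Uhrf1 (0.90), Rrm1 (0.90), Rpa1 (0.88) and 2810417H13Rik (0.87). Rrm1 was on both lists. These values describe likeness over libraries that share depth and composition, are picked as the highest of many, and carry no test.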

How the data were processed

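RNA of 22 livers was extracted with TRIzol, selected by polyT, fragmented and sequenced, per the labels' protocols. The authors deposited 1 table of RPKM values with 1 column per library. Per the submitters' processing notes the tools were TopHat 1.4.1 and Cufflinks 1.3.0, with build mm10; annotation, filters and strand use are not stated. Depth, estimated from the steps of low values, was 50.2 to 83.1 M reads per library. Of low values 32.5% to 48.3% were whole within 0.05, too few for a count test. Precision therefore comes from the spread between libraries, and p-values measure that spread, which may be partly technical. The main fit counted the resembling pairs as separate libraries, and whether they came from separate animals is not stated.

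The 12537 genes that reached 0.5 RPKM in 7 or more libraries were fitted as log2(RPKM + 0.5), a scale that understates changes of low genes, with limma 3.58.1 (robust eBayes with a trend; statmod 1.5.0; R 4.3.3) in 1 model of 3 groups. P-values were two-sided, adjusted by Benjamini-Hochberg over all genes, and called under 0.05. The fit was tested on simulated data with independent libraries, which does not cover the resembling pairs. Python 3.11.15 served for the rest. Members and lists were chosen with earlier results of these data known. Of each list, the called gene with the smallest adjusted p in each direction and the most abundant gene not called were named for YC minus vehicle, plus Ccne1, E2f1, Cdkn1a, Cdk1, Mki67 and Top2a. Library scaling, filters, pseudocounts, weights and left-out libraries were varied. Marker lists of bile duct cells, macrophages, lymphocytes, sinusoidal endothelium and stellate cells were also summed. 1 transcript of the marker lists is not reported here. Coordinates are of GENCODE M21 on GRCm38, the build called mm10. Of 10 promoter windows, 8 matched a transcript of their gene, all on the sense strand over 25 bases; those of Mcm5 and Mcm6 did not.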

Additional observations from a re-analysis of the deposited data

Results flagged for a closer look

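Within each group, the highest and lowest liver of each member was compared with the next, by the ratio of that gap to the group's range against Dixon's 95% critical value. Of 30 groups of values, 6 stood out, where chance gives about 1 in 20, and all were of YC 5 or vehicle 1, so they are not independent. YC 5 was far above the other YC livers in Mcm3 (12.6 RPKM, next 6.06), Mcm4 (6.03, next 3.76), Mcm6 (24.4, next 15.6) and Cdc6 (1.63, next 0.717). Vehicle 1 was far above the other vehicle livers in Mcm4 (5.29 RPKM, next 2.97) and Cdc6 (1.297, next 0.641).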

How the results depend on the processing

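Counts of called members were recomputed under 37 alternatives, 3 of them (resembling pairs averaged, without the YC livers lacking Y-linked transcripts, without vehicle 1 and YC 5) chosen after seeing the data. For YC minus vehicle, 6 members were called, 5 of them higher. Under quantile normalization, as under median-ratio scaling, 3 were called, 2 of them higher. The number called higher was 3 when only the groups compared were fitted, with the resembling pairs averaged and without the YC livers lacking Y-linked transcripts. Leaving out each library gave 3 to 7 called, 2 to 6 of them higher and 1 lower, the lowest without YC 5. For vehicle minus D0, the members called lower were 1 in place of 2 with no filter on low values, median-ratio scaling and quantile normalization, and 1 to 2 when leaving out each library (7 to 8 called in all, 6 higher). For YC minus D0, 1 member (Pcna) was called lower in place of none with median-ratio scaling and with array weights, and leaving out each library gave 6 called, 6 higher and 0 lower. No called value changed sign in any alternative.

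The replicate number did not pair the livers: correlations of the deviations of same-numbered libraries were -0.39 to 0.21 for YC and vehicle, -0.22 to 0.23 for vehicle and D0 and -0.12 to 0.11 for YC and D0. With the replicate block 3 members were called higher in YC than in vehicle livers and 1 lower in vehicle than in D0 livers, the calls of Mcm7 (both) and Pcna (YC minus vehicle) ending. How depth limits single members was not tested.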
